A study of Mus musculus with 5 samples.

Results

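The transforming growth factor beta (TGF-beta) and bone morphogenetic protein (BMP) ligands and receptors were examined for chromatin marks in neuronal nuclei of the mouse striatum. Members were taken by gene symbol: the Bmp, Gdf, Inh, Tgfb, Lefty and Nodal genes, and the Acvr, Bmpr and Tgfbr receptor genes. Of the 19232 gene symbols in the deposited region lists, 42 fitted this rule. The gene table holds 44 coding genes with such a symbol, and the other 2, Bmp5 and Bmp10, had no region in any list. Shares of members are of these 44 genes, whether listed or not. Of them, 31 encode ligands, 12 encode receptors and 1, Bmp1, encodes a protease that carries the family name without being a ligand of the family.

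The nuclei came from the striatum of C57BL/6 mice aged 8 weeks, named medium spiny neurons in the labels, and were selected by the neuronal nuclear protein NeuN, a selection that also keeps striatal interneurons. The labels name no genetic change and no treatment, and do not say how many animals were pooled. Chromatin was immunoprecipitated with antibodies to H3K4me3, H3K27me3, H3K27ac and RNA polymerase II (Pol II), with 1 library for each and 1 input library. H3K4me3 is found at most CpG-rich start sites. H3K27me3 is the product of Polycomb and goes with repression, H3K27ac goes with active promoters and enhancers, and Pol II is the enzyme that transcribes these genes. Each list names regions near transcription start sites with the authors' own score of the region over input, never below 2. The scale of the score is not given in the sources used here, so scores are compared only within a list. There are no replicates, no test was possible, and the read depth of the libraries is not known from these files. A gene without a region in a list was not listed at that unknown depth, which does not show that it lacks the mark. Marks listed at the same gene may also lie in different nuclei of the sorted population.

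Of the 8 neuronal markers checked, among them Ppp1r1b, Drd1, Drd2 and Rbfox3, all had H3K4me3, H3K27ac and Pol II regions. Drd1 and Drd2, 2 of the 8 (25.0%), also had H3K27me3, over 38.7 kb and 54.2 kb. Of 16 markers of astrocytes, oligodendrocytes, microglia and vessels, 1 (Mbp, the myelin basic protein gene) had H3K27ac and Pol II, while 13 (81.2%) had H3K27me3. The shares of all coding genes were 68.4% for H3K4me3, 51.5% for H3K27ac, 41.7% for Pol II and 42.5% for H3K27me3.

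Most ligands of the family are secreted dimers. Most bind type II receptors, which phosphorylate type I receptors, and these in turn phosphorylate Smad proteins that move to the nucleus. TGF-beta, activin and nodal ligands act mainly through Smad2 and Smad3, and BMP ligands through Smad1, Smad5 and Smad9. The family patterns the early embryo and the neural tube, and in the adult brain it takes part in responses to injury and in the regulation of glia, vessels and synapses.

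Most receptor genes carried the marks of active promoters, and most ligand genes carried H3K27me3. H3K27me3 was listed at 22 of 31 ligand genes (71.0%) and 3 of 12 receptor genes (25.0%), a difference of 46.0 percentage points, against 42.5% of all 21031 coding genes. H3K27ac was listed at 12 ligand genes (38.7%) and 9 receptor genes (75.0%), a difference of -36.3 points, against 51.5% of coding genes. Pol II was listed at 8 ligand genes (25.8%) and at the same 9 receptor genes (75.0%), a difference of -49.2 points, against 41.7% of coding genes. H3K4me3 was the mark that both groups shared, at 25 ligand genes (80.6%) and 11 receptor genes (91.7%), a difference of -11.0 points, against 68.4% of coding genes.

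These differences are between genes of 1 library each and carry no test. When only regions listed for a single gene were counted, H3K27me3 was left at 16 members (36.4%, against 29.1% of coding genes) and its difference between ligand and receptor genes was 16.9 points, since 10 of the 26 members with H3K27me3, none of them a receptor gene, had it only through a region that also reached a neighbour. The H3K4me3 difference was -27.2 points in that setting. When only regions at or above the median score of their list were counted, H3K4me3 was left at 7 ligand and 9 receptor genes, a difference of -52.4 points. The near agreement of ligand and receptor genes in H3K4me3 thus rested on counting regions shared with a neighbour and regions below the median score.

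**Figure D1:**
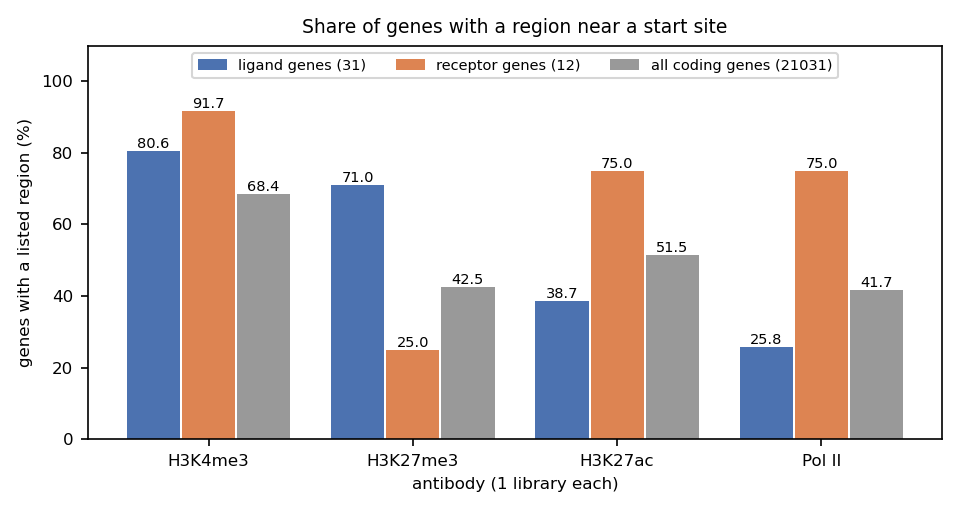
Share of the 31 ligand genes, the 12 receptor genes and all 21031 coding genes with at least 1 listed region, in percent on the vertical axis, for each antibody on the horizontal axis. The ligand bar stands above the other bars for H3K27me3 (71.0%), and the receptor bar stands above them for H3K4me3, H3K27ac and Pol II (91.7%, 75.0% and 75.0%).

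Over the whole set of 44 genes, H3K4me3 and H3K27me3 were listed more often than over all coding genes, and H3K27ac and Pol II about as often. H3K4me3 was listed at 37 members (84.1%), H3K27me3 at 26 (59.1%), H3K27ac at 22 (50%) and Pol II at 17 (38.6%). The last pair of shares is near the shares of all coding genes, 51.5% and 41.7%. A region of any antibody was listed for 42 members (95.5%), against 86.7% of coding genes.

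By combination of antibodies, 16 members (36.4%) had H3K4me3, H3K27ac and Pol II (together called active marks below) and no H3K27me3, against 34.8% of coding genes. They were 7 ligand genes (Tgfb2, Tgfb3, Inha, Inhba, Gdf1, Gdf9 and Gdf15) and 9 receptor genes (Acvr1, Acvr1b, Acvr1c, Bmpr1a, Tgfbr1, Acvr2a, Acvr2b, Bmpr2 and Tgfbr3). H3K4me3 with H3K27me3 and neither of the others, the pair of marks called bivalent, was found at 15 members (34.1%), against 13.4% of coding genes. They were 13 ligand genes (Tgfb1, Inhbb, Inhbe, Nodal, Lefty1, Lefty2, Bmp3, Bmp4, Bmp8a, Bmp8b, Gdf6, Gdf7 and Gdf10) and the receptor genes Acvrl1 and Tgfbr2. H3K4me3, H3K27me3 and H3K27ac without Pol II were listed at 5 members (11.4%), against 4.40% of coding genes: Gdf11, Bmp2, Bmp7, Gdf5 and Bmp1. H3K27me3 alone was listed at 5 members (11.4%), namely Inhbc, Gdf3, Bmp15, Gdf2 and Bmpr1b, against 18.2% of coding genes. Bmp6 was the 1 member (2.27%) with all 4 antibodies, a combination found at 5.93% of coding genes, and the 2 members with no region (4.55%) compare with 13.3% of coding genes.

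The bivalent count depends on which regions are kept in the 4 lists. With regions at or above the median score it was 2 (Inhbb and Bmp7; 4.55%, against 2.37% of coding genes). Bmp7 is not among the 15 and entered because its H3K27ac region, with a score of 2.34, was no longer counted. With lists shortened to equal length it was 3 (Tgfb1, Inhbb and Bmp7; 6.82%, against 2.44%), and 17 members then had H3K4me3 (38.6%, against 43.4%). With regions of a single gene it was 9 (20.5%, against 8.68%). The H3K4me3 scores of the 15 bivalent members ranged from 2.03 to 7.55 with a median of 4.42, and those of the 16 members with active marks and no H3K27me3 from 2.66 to 12.2 with a median of 9.50. All coding genes of the same combinations had medians of 3.82 and 8.81, so the members lay near the genes they share a combination with. H3K27me3 scores of the bivalent members had a median of 7.13, against 5.28 for all coding genes with that combination.

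**Figure D2:**
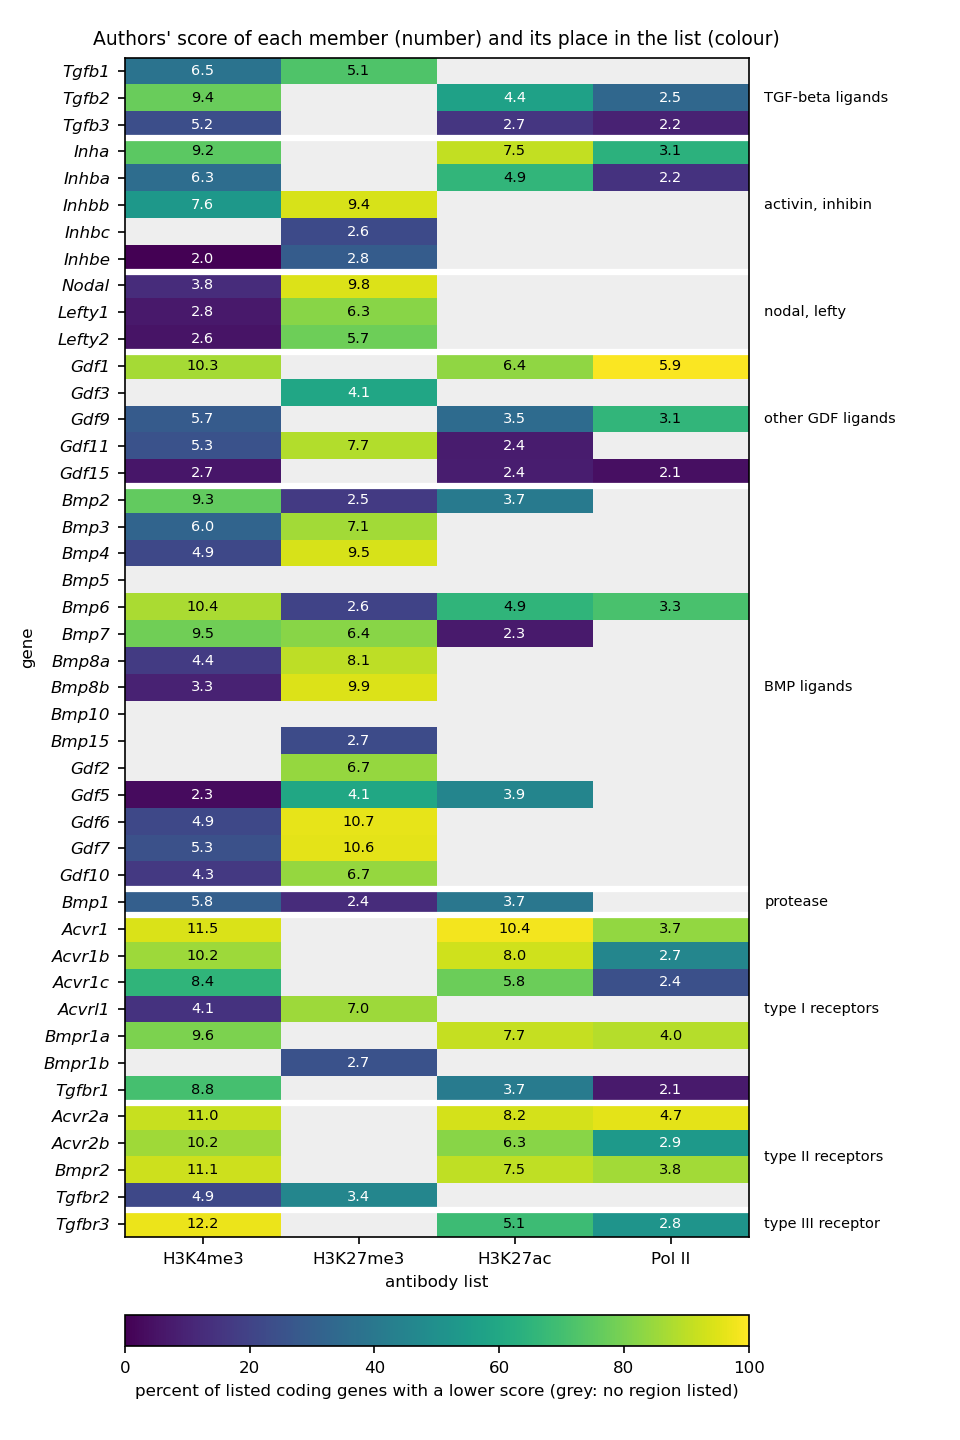
Authors' score (number in each cell) of the 44 members in rows, grouped by role, for the 4 antibody lists in columns; the colour gives the percent of coding genes in the same list with a lower score, and grey means that no region was listed. Most receptor genes at the bottom are filled in the H3K4me3, H3K27ac and Pol II columns. Acvrl1, Bmpr1b and Tgfbr2 are grey for H3K27ac and Pol II and filled for H3K27me3. BMP ligand genes are filled mainly in the H3K4me3 and H3K27me3 columns, where Gdf6 has the highest H3K27me3 score, 10.7.

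The members also differed in the sequence at their start sites. RefSeq windows of 300 bases (250 before the start and 50 after it, build GRCm38.p6) were found for 31 of the 44 members. The files' regions are on build mm9, so windows could not be laid on regions, and where a gene has several windows the one with most CG dinucleotides was taken. A CG pair is the site of cytosine methylation, and promoters dense in it form CpG islands. The 6 windows below, all from members with 1 window, run from the densest of the receptor genes to members without H3K4me3, with each CG in capitals. Acvr2a and Bmpr1a had active marks, Gdf10 and Inhbb were bivalent, Inhbc had H3K27me3 alone and Bmp10 had no region.
Acvr2a: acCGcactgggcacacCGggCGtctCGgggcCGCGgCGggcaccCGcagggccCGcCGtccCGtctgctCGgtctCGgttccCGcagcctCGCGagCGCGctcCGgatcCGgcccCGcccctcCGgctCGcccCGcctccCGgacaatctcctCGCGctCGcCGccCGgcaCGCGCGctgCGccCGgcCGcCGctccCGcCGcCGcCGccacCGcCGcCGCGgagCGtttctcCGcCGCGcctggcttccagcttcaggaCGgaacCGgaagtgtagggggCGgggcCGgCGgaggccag
Bmpr1a: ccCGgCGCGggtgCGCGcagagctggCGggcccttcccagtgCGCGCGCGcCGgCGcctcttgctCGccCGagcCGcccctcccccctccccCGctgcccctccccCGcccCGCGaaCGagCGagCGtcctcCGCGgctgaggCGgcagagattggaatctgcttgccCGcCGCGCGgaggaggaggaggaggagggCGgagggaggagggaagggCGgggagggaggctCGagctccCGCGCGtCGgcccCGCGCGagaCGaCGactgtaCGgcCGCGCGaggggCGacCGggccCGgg
Gdf10: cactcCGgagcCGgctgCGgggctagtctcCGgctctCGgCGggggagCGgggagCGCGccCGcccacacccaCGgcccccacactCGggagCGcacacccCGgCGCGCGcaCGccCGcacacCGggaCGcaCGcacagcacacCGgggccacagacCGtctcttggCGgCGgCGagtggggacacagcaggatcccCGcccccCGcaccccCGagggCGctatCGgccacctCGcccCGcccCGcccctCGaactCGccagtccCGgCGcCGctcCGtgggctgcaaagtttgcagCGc
Inhbb: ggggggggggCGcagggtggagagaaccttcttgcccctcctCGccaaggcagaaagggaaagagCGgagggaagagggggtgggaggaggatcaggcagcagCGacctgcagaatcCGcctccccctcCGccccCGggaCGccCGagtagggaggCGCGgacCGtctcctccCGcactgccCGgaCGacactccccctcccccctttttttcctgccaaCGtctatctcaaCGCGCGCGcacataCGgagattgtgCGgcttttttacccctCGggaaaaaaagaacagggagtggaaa
Inhbc: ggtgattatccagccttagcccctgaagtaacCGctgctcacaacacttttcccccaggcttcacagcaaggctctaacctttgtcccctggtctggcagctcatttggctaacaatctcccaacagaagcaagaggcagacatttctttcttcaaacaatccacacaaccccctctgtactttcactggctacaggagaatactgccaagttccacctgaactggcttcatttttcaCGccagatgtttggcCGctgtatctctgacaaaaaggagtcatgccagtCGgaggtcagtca
Bmp10: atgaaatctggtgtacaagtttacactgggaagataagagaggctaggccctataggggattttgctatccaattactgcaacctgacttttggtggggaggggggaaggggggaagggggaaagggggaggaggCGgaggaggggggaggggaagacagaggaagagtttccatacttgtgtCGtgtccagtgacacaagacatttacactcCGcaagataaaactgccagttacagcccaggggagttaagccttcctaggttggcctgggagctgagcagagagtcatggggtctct

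These windows hold 54 CG pairs in Acvr2a (chr2:48813859-48814158, plus strand), 48 in Bmpr1a (chr14:34502497-34502796, minus strand), 42 in Gdf10 (chr14:33923337-33923636, plus strand), 23 in Inhbb (chr1:119422199-119422498, minus strand), 4 in Inhbc (chr10:127370499-127370798, minus strand) and 3 in Bmp10 (chr6:87428744-87429043, plus strand). CG, which reads the same on both strands, occurs at least once in 95.7% of the 20488 windows of coding genes, so its number and not its presence separates them. The 25 members with H3K4me3 and a window held 5 to 54 CG pairs with a median of 23, against a median of 21 for coding genes with H3K4me3. The 6 members without H3K4me3 and with a window held 2 to 6 with a median of 4, against 3 for coding genes without H3K4me3. The ranges meet at Inha and Nodal, with 5 CG pairs each, and Inhbe, with 6. A region of H3K4me3 was listed for these although their windows were as poor in CG as those of members without H3K4me3. The region of Inha was also listed for Obsl1, and that of Inhbe had a score of 2.03, close to the lowest listed. As windows were not laid on regions, the mark cannot be placed at these CG-poor windows.

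Among members with H3K4me3, H3K27ac and Pol II and no H3K27me3, receptor and ligand genes differed in this count. The 8 receptor genes with a window held 23 to 54 CG pairs, with a median of 43.5, and the 5 ligand genes held 5 to 22, with a median of 7, against a median of 25 for all coding genes of that combination. The ranges were next to each other, at 22 in Gdf1 and 23 in Bmpr2, and lay apart only because the window richest in CG was taken. The other windows of the genes with more than 1 held as few as 2 CG pairs in Acvr1c, 3 in Tgfbr1, 8 in Gdf1 and 1 in Gdf15, and with these the receptor and ligand ranges overlapped and Acvr1c, Tgfbr1 and Gdf15 fell within or below the range of members without H3K4me3. The 10 bivalent members with a window held 5 to 42, with a median of 19, against 13.5 for bivalent coding genes. The letters TATAAA, searched on both strands, occurred in the counted window of 12.8% of coding genes with a window. The share of members was near this, with 5 of 31 (16.1%): Tgfb2, Inhba, Gdf11, Bmp15 and Gdf2, all ligand genes.

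**Figure D3:**
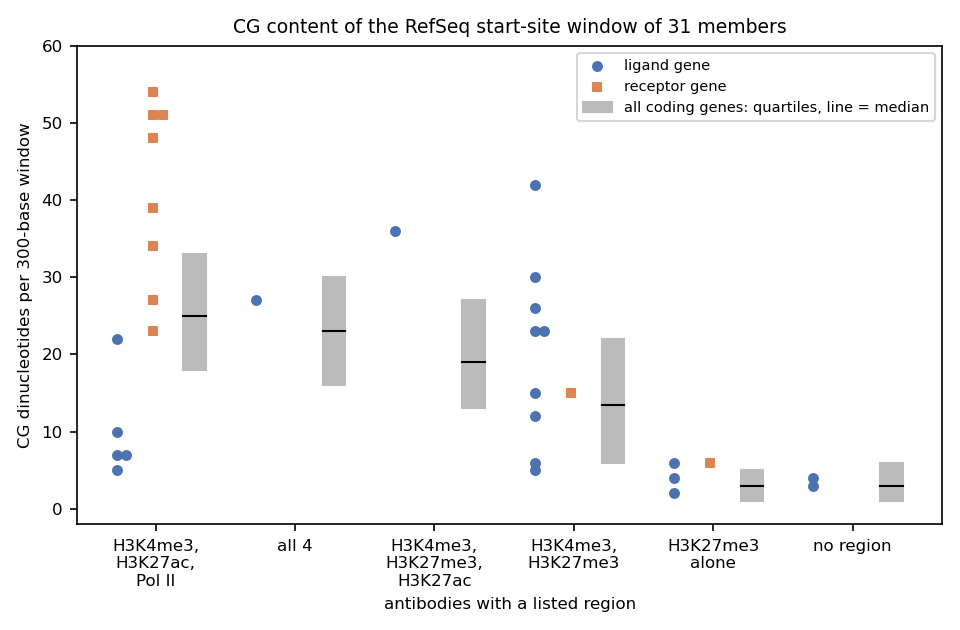
CG dinucleotides in the 300-base start-site window richest in CG (vertical axis) of the 31 members with a window, by the antibodies with a listed region (horizontal axis); circles are ligand genes, squares are receptor genes, and grey bars give the quartiles of all coding genes of the same combination with a line at the median. Receptor genes with active marks sit between 23 and 54, and all members without H3K4me3 sit at 6 or below.

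The 3 TGF-beta ligand genes did not share a combination. Tgfb1, which encodes the form with the broadest role in immune control and fibrosis, had a 13.6 kb H3K4me3 region with a score of 6.51, shared with the neighbouring B9d2, and a 7.2 kb H3K27me3 region with a score of 5.07. The H3K27me3 region ended at the same position as the H3K4me3 region and covered 52.9% of it, in its downstream part. Tgfb2, needed in heart and palate development, had a 7.7 kb H3K4me3 region scoring 9.36, H3K27ac scoring 4.41 and Pol II scoring 2.53, all listed for it alone. Tgfb3, another palate factor, had weaker regions, with scores of 5.22 for H3K4me3, 2.70 for H3K27ac and 2.15 for Pol II, and each of them was also listed for Ift43, a cilium transport gene. The Pol II score of Tgfb3 was above that of 9.68% of the coding genes in that list.

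Of the 5 activin and inhibin subunit genes, 2 had active marks. Inhba, which encodes the subunit of activin A and responds to neuronal activity, had the widest H3K27ac region of the members, 16.6 kb, wider than those of 99.4% of coding genes in that list, although its score of 4.92 was above only 66.0% of them. Its H3K4me3 region was as wide, 16.8 kb, and its Pol II region spanned 4.7 kb near the upstream end of both, with a score of 2.23. Inha, the alpha subunit that turns activins into inhibins, had scores of 9.16 for H3K4me3, 7.53 for H3K27ac and 3.11 for Pol II. Each of these 3 regions was also listed for Obsl1, a cytoskeletal linker gene, so the lists do not tell which of the genes they belong to.

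The other activin subunit genes had neither H3K27ac nor Pol II. Inhbb, the subunit of activin B, lay on chromosome 1 within H3K27me3 of 61.7 kb (mm9, 121280201 to 121341900) with a score of 9.35, around a 7.5 kb H3K4me3 region with a score of 7.55. Inhbc and Inhbe, subunit genes known mainly from liver, are neighbours on chromosome 10, with 6.4 kb between their regions. Inhbc had a 6.5 kb H3K27me3 region with a score of 2.64. Inhbe had 10.5 kb of H3K27me3 with a score of 2.84, and a 6.9 kb H3K4me3 region whose score of 2.03 was the lowest of all members and above that of 0.376% of coding genes in the list.

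Nodal and its antagonists Lefty1 and Lefty2, which act in the early embryo and set the left-right axis, were all bivalent. Nodal had 46.7 kb of H3K27me3 with a score of 9.79, also listed for Pald1, around 7.1 kb of H3K4me3 with a score of 3.78. Lefty1 and Lefty2, with 31.6 kb between their regions, each had an H3K27me3 region. It was 30.7 kb with a score of 6.33 at Lefty1, also listed for Tmem63a, and 17.1 kb with a score of 5.74 at Lefty2. Their H3K4me3 regions were 4.7 kb and 4.4 kb wide and scored 2.78 and 2.56, and 4.4 kb was the narrowest H3K4me3 region of the members.

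The remaining GDF ligand genes were divided. Gdf1, a left-right axis factor in the embryo, had the highest Pol II score of the members, 5.93, above that of 99.3% of coding genes in that list. This Pol II region, on chromosome 8 (mm9, 72850601 to 72859500, 8.9 kb), was listed for 1 of the 2 Gdf1 transcripts and for no other gene. The other transcript was listed with regions further upstream that were also listed for Cers1, a ceramide synthase gene, where H3K4me3 scored 10.3, H3K27ac 6.41 and Pol II 3.23. In the downstream regions H3K4me3 scored 3.02 over 18.7 kb and H3K27ac scored 2.56 over 5.2 kb. The order was thus reversed between the lists, with the higher H3K4me3 and H3K27ac scores in the upstream regions and the higher Pol II score in the downstream region.

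Gdf9, an oocyte factor, had H3K4me3 (5.69), H3K27ac (3.47) and Pol II (3.15), each in a region also listed for Uqcrq, a gene of respiratory complex III, and the Pol II region of 9.4 kb was listed for Leap2 as well. Gdf15, a stress-induced cytokine, had all 3 active marks close to the lowest listed score, with 2.66 for H3K4me3, 2.39 for H3K27ac and 2.07 for Pol II, the lowest Pol II score of the members. Gdf11, which limits neurogenesis and patterns the embryonic axis, had 25.7 kb of H3K27me3 with a score of 7.65, also listed for Cd63, a 9.9 kb H3K4me3 region with a score of 5.33 and a 4.4 kb H3K27ac region with a score of 2.36. Gdf3, a factor of early embryonic cells, had 14.7 kb of H3K27me3 with a score of 4.05, shared with Apobec1. Of the 7 ligand genes with active marks and no H3K27me3, 3 (Tgfb3, Inha and Gdf9) therefore had them only in regions shared with a neighbour.

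H3K27me3 was listed at 13 of the 15 BMP-type ligand genes (86.7%), against 56.2% of the 16 other ligand genes and 42.5% of coding genes. Of the 13, Bmp4, Bmp8b, Gdf2, Gdf5 and Gdf10 had it only in a region also listed for another gene. Gdf2 and Gdf10 had the same region. Among the other ligand genes, Nodal, Lefty1, Gdf3 and Gdf11 had it only in a shared region. H3K27ac was listed at 4 of the BMP-type ligand genes (26.7%, against 50% of the other ligand genes) and Pol II at 1 (6.67%, against 43.8%). Of the other ligand genes, Tgfb3, Inha and Gdf9 had both only in regions also listed for a neighbour. With regions listed for 1 gene only, H3K27ac stayed at Tgfb2, Inhba, Gdf1, Gdf11 and Gdf15 and at the same 4 BMP-type genes. The H3K27ac difference was thus smaller in that setting. The highest H3K27me3 score of all members was at Gdf6, a factor of joint, skull and eye development, with 10.7 over 106.8 kb of chromosome 4 (mm9, 9729601 to 9836400), also the widest. Gdf7, made by the roof plate of the neural tube, followed with 10.6 over only 17.0 kb. Their H3K4me3 regions were 12.2 kb and 9.1 kb wide, with scores of 4.92 and 5.27.

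Bmp4, a main signal of dorsal and ventral patterning, had H3K27me3 over 79.6 kb of chromosome 14 (mm9, 46973301 to 47052900) with a score of 9.49 around 13.0 kb of H3K4me3 with a score of 4.92. Both were also listed for the predicted gene Gm15217. Bmp8a and Bmp8b, close paralogues with roles in germ cells, lie on the same chromosome with 202.6 kb between their regions. Bmp8b had 67.0 kb of H3K27me3 with a score of 9.94, shared with Oxct2b, and Bmp8a had 14.4 kb with a score of 8.06. Reads of close paralogues can be hard to assign, and how the authors treated them is not given in the sources used here. Bmp3, an inhibitor of BMP signals in bone, had 36.7 kb of H3K27me3 with a score of 7.13 and 6.0 kb of H3K4me3 with a score of 5.98.

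Gdf10 and Gdf2 lay in the same H3K27me3 region, which covers 101.9 kb of chromosome 14 (mm9, 34693901 to 34795800), scored 6.72 and was also listed for Rbp3 and Zfp488. Within it Gdf10, a relative of Bmp3, had a 5.5 kb H3K4me3 region with a score of 4.32, and none was listed for Gdf2, an activating ligand of the vessel wall receptor Acvrl1. The Gdf10 window printed above holds 42 CG pairs and that of Gdf2 holds 6. Bmp15, an oocyte factor on the X chromosome, had a narrow H3K27me3 region of 4.8 kb with a score of 2.65. Bmp5, a skeletal factor, and Bmp10, a heart factor, had no region, and their windows held 4 and 3 CG pairs.

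Bmp2, Bmp6, Bmp7 and Gdf5 were the BMP-type ligand genes with H3K27ac. Bmp6, which in the liver controls the iron hormone hepcidin, had scores of 10.4 for H3K4me3, 4.89 for H3K27ac and 3.28 for Pol II, and a narrow H3K27me3 region of 4.5 kb, scoring 2.58, on chromosome 13 (mm9, 38435901 to 38440400). All 4 regions overlapped, and the H3K27me3 region lay inside the 7.0 kb H3K4me3 and the 5.8 kb H3K27ac regions. Bmp2 showed the same arrangement without a Pol II region. Its H3K27me3 region of 4.6 kb with a score of 2.49 lay inside a 7.2 kb H3K4me3 region with a score of 9.27 and a 5.3 kb H3K27ac region with a score of 3.71. These were the 2 narrowest H3K27me3 regions among the ligand genes.

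Bmp7, required for kidney and eye, had the opposite layout. A 50.3 kb H3K27me3 region with a score of 6.37 surrounded 11.0 kb of H3K4me3 with a score of 9.45 and a 4.1 kb H3K27ac region whose score of 2.34 was the lowest of the members. Gdf5, a joint factor, had 20.4 kb of H3K27me3 with a score of 4.07, also listed for Uqcc1, an H3K27ac region of 8.0 kb with a score of 3.88, and 4.9 kb of H3K4me3 with a score of 2.29. Gdf5 was the 1 member whose H3K27ac region was wider than its H3K4me3 region and held it whole. The protease gene Bmp1, whose product cleaves procollagen and the BMP antagonist chordin, had scores of 5.82 for H3K4me3 and 3.66 for H3K27ac. Its H3K27me3 region of 4.3 kb, with the lowest H3K27me3 score of the members (2.36), covered 29.8% of the H3K4me3 region at its upstream side. Every region of Bmp1 was also listed for Sftpc, a lung surfactant gene.

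Where H3K4me3 and H3K27me3 were listed at the same member, the H3K27me3 region usually took in the H3K4me3 region. At 15 of 21 members (71.4%) the H3K4me3 region was covered whole, against 46.4% of the 5090 coding genes that had both on the same chromosome. No member had the regions apart, against 5.76% of those genes. At 12 of the 22 ligand genes with H3K27me3 (54.5%) the region was wider than 20 kb, at none of the 3 receptor genes, and at 43.0% of all coding genes with H3K27me3. Of these 12 ligand genes, Gdf2 and Gdf10 had the same region, and only Inhbb, Bmp3, Bmp7 and Gdf6 had one listed for no other gene. The exceptions to full cover were Tgfb1, Inhbe, Bmp2, Bmp6, Bmp1 and Acvrl1.

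**Figure D4:**
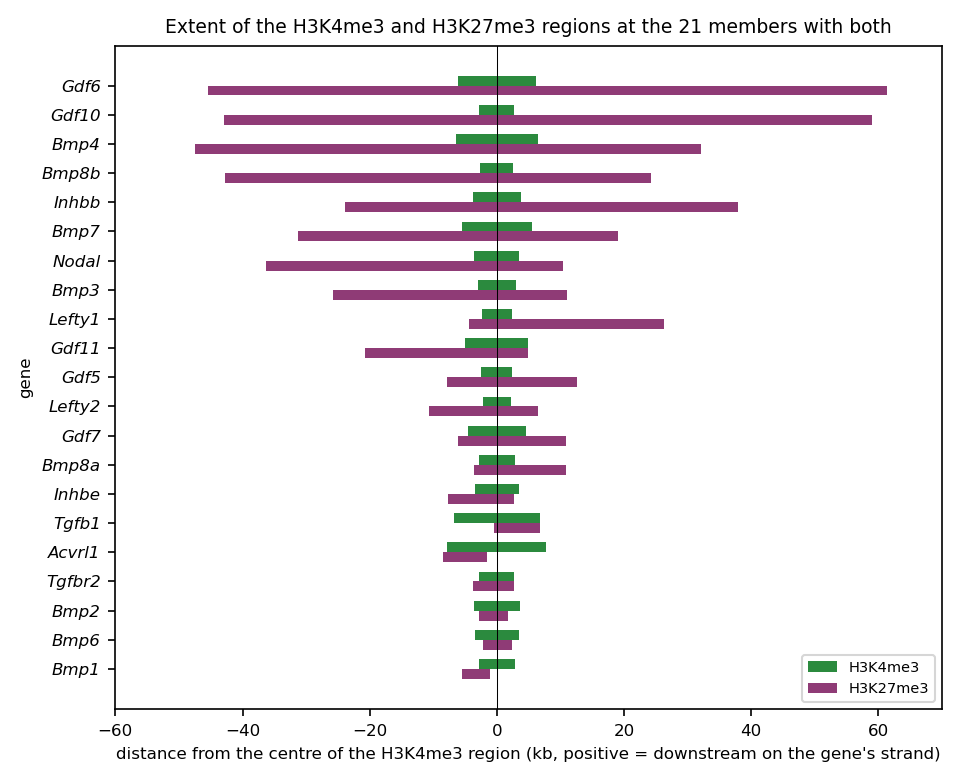
Extent of the H3K4me3 region (green) and the H3K27me3 region (purple) at the 21 members with both, one gene per row from the widest to the narrowest H3K27me3 region; the horizontal axis gives the distance in kb from the centre of the H3K4me3 region, positive downstream on the strand of the gene. Gdf6 has the widest H3K27me3 region, 106.8 kb, and Bmp2, Bmp6 and Bmp1 at the bottom have H3K27me3 regions narrower than their H3K4me3 regions.

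The type I receptor genes had active marks at 5 of 7. Acvr1, a BMP receptor, had scores of 11.5 for H3K4me3, 10.4 for H3K27ac and 3.71 for Pol II, and its H3K27ac score was the highest of the members and above that of 98.1% of coding genes in that list. Acvr1b, an activin receptor, had scores of 10.2 for H3K4me3, 7.99 for H3K27ac and 2.72 for Pol II. Bmpr1a, the BMP receptor with broad roles in development, had scores of 9.65, 7.65 and 4.0 in the same order of antibodies. Acvr1c, which binds nodal and some activins, was lower with 8.42, 5.79 and 2.38, and a second H3K4me3 region, with a score of 2.42 over 4.6 kb, was listed for another of its transcripts. Tgfbr1, the type I receptor of TGF-beta, had 8.84 for H3K4me3, but its H3K27ac score of 3.73 and its Pol II score of 2.11 were the lowest among the 9 receptor genes with those marks, and its 3.9 kb Pol II region was the narrowest of the members.

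The other type I receptor genes were Acvrl1 and Bmpr1b. Acvrl1, a receptor of endothelial cells, had 7.0 kb of H3K27me3 on chromosome 15 (mm9, 100956101 to 100963100) with a score of 6.95, the highest of a receptor gene. Its H3K4me3 region was the widest of the receptor genes, 15.6 kb with a score of 4.06, and extended 9.3 kb downstream beyond the H3K27me3 region, which covered 40.4% of it. Acvr1b is the neighbour of Acvrl1, with 29.2 kb between their regions, and had no H3K27me3. Bmpr1b, the type I receptor known for cartilage and ovary, had H3K27me3 alone, 7.8 kb with a score of 2.73, and its windows held at most 6 CG pairs.

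Of the 4 type II receptor genes, 3 had active marks and no H3K27me3. Acvr2a, an activin receptor, had scores of 11.0 for H3K4me3, 8.22 for H3K27ac and 4.72 for Pol II, and the Pol II score was the highest of the receptor genes and above that of 95.9% of coding genes in that list. Bmpr2, the BMP type II receptor, had scores of 11.1, 7.46 and 3.83 in the same order. Acvr2b, the other activin receptor, had 10.2, 6.27 and 2.88. Tgfbr2, the type II receptor of TGF-beta, differed from these with H3K4me3 over 5.5 kb (4.94) and H3K27me3 over 6.5 kb (3.43), with a common downstream edge at position 116081501 of chromosome 9 (mm9). Tgfbr1 and Tgfbr2, which act together as the TGF-beta receptor, thus had different combinations.

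Tgfbr3, which encodes betaglycan, a co-receptor that presents TGF-beta2 and inhibin, had the highest H3K4me3 score of the members, 12.2, above that of 97.2% of coding genes in that list. Its H3K27ac score of 5.08 was above that of 68.5% of coding genes with that mark, and its Pol II score of 2.83 above that of 51.6%. The 9 receptor genes with active marks had H3K4me3 scores between 8.42 and 12.2, a range reached by 6 of the 25 ligand genes with H3K4me3: Tgfb2, Inha, Gdf1, Bmp2, Bmp6 and Bmp7. Their median H3K27ac score, 7.46, was above that of 90.4% of coding genes in the list, and their median Pol II score, 2.88, above that of 53.9%. The 7 ligand genes with active marks and no H3K27me3 had medians of 4.41 for H3K27ac, above 57.1% of that list, and 2.53 for Pol II, above 33.4%. In the upper part of each list, at or above its median score, H3K4me3 was at 16 members (36.4%, against 36.9% of coding genes), H3K27me3 at 19 (43.2%, against 25.0%), H3K27ac at 13 (29.5%, against 26.1%) and Pol II at 10 (22.7%, against 21.2%). There, H3K27ac was at 5 ligand and 8 receptor genes and Pol II at 4 and 6, while 9 members (20.5%, against 16.2%) had H3K4me3, H3K27ac and Pol II and no H3K27me3.

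All regions of the 9 receptor genes with active marks were listed for the receptor gene alone. Their H3K27ac regions were 5.2 to 7.2 kb wide, and 8 of 9 lay whole inside the H3K4me3 region, as did all 9 Pol II regions of 3.9 to 5.7 kb. None reached the width of the Inhba H3K27ac region.

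Among other genes of the pathway, counts are read against the shares of all coding genes given above (H3K4me3 68.4%, Pol II 41.7%, H3K27ac 51.5%, H3K27me3 42.5%). Of the 8 Smad genes, all had H3K4me3, 7 H3K27ac (87.5%), 6 Pol II (75.0%) and 2 H3K27me3 (25.0%). Smad7, an inhibitory Smad, had the highest scores of the list with 14.2 for H3K4me3, 12.3 for H3K27ac and 4.23 for Pol II. Smad2, Smad3, Smad4 and Smad5 also had these 3 marks and no H3K27me3, with H3K27ac scores of 5.23, 7.39, 8.70 and 5.91. Smad1 had all 4 antibodies, with an H3K27me3 score of 2.43, and Smad9 had H3K4me3 (6.94) and H3K27ac (3.49) without Pol II. Smad6, the other inhibitory Smad, had H3K4me3 (6.01) and 20.3 kb of H3K27me3 (10.3). Of 6 intracellular regulators, the ubiquitin ligase genes Smurf1 and Smurf2 and the corepressor genes Ski and Skil had H3K4me3, H3K27ac and Pol II without H3K27me3, and Tgif1 and Tgif2 were bivalent, with H3K27me3 scores of 10.9 and 2.94.

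Genes that act outside the cell were mixed. Of the 14 secreted antagonist genes reported, H3K4me3 was at 13, H3K27me3 at 10 (71.4%), H3K27ac at 6 (42.9%) and Pol II at 4 (28.6%). Dand5, Bmper and Twsg1 carried the 3 active marks and no H3K27me3, with H3K27ac scores of 3.54, 4.74 and 2.72. Chrdl1, Chrdl2, Grem1, Nbl1, Sost and Sostdc1 were bivalent, with H3K27me3 scores from 3.63 at Chrdl1 to 5.97 at Sost. Nog, which encodes the BMP antagonist noggin, had 68.9 kb of H3K27me3 (6.73) with H3K27ac near the lowest listed score (2.45), Chrd had H3K27me3 (2.69) with H3K27ac (4.0), and Fst, the activin antagonist follistatin, had all 4 antibodies with 2.51 for H3K27ac and 2.09 for Pol II. Fstl3 had H3K4me3 alone (4.32), and Cer1 had H3K27me3 alone (5.73).

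Of 7 co-receptor and decoy genes, 6 had H3K27me3 (85.7%), 5 had H3K4me3, 3 had H3K27ac (42.9%) and 2 had Pol II. Bambi, a decoy receptor, was the gene without H3K27me3 and had H3K27ac (2.91) and Pol II (2.05). Rgmb had all 4 antibodies and Rgma lacked Pol II, Hjv and Cfc1 were bivalent, and the endothelial gene Eng and Tdgf1 had H3K27me3 alone. All 4 genes of latent TGF-beta binding proteins, which hold the ligand in the matrix, had H3K4me3 and H3K27me3 and none had Pol II. Ltbp1 had the widest H3K27me3 region among them, 190.2 kb with a score of 7.86, and Ltbp1 and Ltbp3 had H3K27ac scores of 2.06 and 3.10.

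All 4 target genes reported, the Id genes, had H3K4me3 and H3K27me3, and 2 of them had H3K27ac and Pol II. Id4 scored 8.43 for H3K27ac with a 3.2 kb H3K27me3 region near the lowest listed score (2.06), whereas Id2 scored 2.01 for H3K27ac beside 209.4 kb of H3K27me3 (8.57). Id1 and Id3 were bivalent, with H3K27me3 scores of 3.94 and 7.72. Of the 3 family genes outside the symbol rule, Amh had H3K4me3 (12.3), H3K27ac (5.06) and Pol II (3.36), its receptor gene Amhr2 was bivalent with H3K4me3 (2.18) and H3K27me3 (2.42), and Mstn had no region.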

How the data were processed

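Each antibody has 1 library of sorted striatal neuronal nuclei, and the deposited files are region lists with a score per region over input, given by the authors. The submitters' processing notes list Bowtie (0.12.7), MACS (1.4) and mm9 without saying which step each served. The list names state a window of 3 kb around start sites. All 117 lines of the members matched a gene table (GRCm38.p6, used for names) by transcript accession (0.341% of all lines matched no gene), and the background was its 21031 coding genes with a curated transcript. A gene carries a mark when at least 1 region is listed for it, and its score and width are its highest and widest. Positions are mm9, counted from 1. Depth is unknown, so no interval is given. With 1 library per antibody no test was made. Promoter windows come from RefSeq (GRCm38.p6). The counting was tested on simulated lists. Members, roles and lists were chosen with earlier results of these data known. All members are named. Of the pathway lists, 1 secreted antagonist and 1 target gene are not reported here and are left out of the counts, and every other gene is named. Python 3.11.15, pandas 2.3.3 and matplotlib 3.10.9 were used. Other settings were score and length limits, shared regions, symbol matching, members counted and overlap.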

Additional observations from a re-analysis of the deposited data

How the results depend on the processing

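The counts rest on which regions were listed at an unknown depth. With regions at or above the median score of each list, members with H3K4me3 numbered 16, with H3K27ac 13 and with Pol II 10 (36.9%, 26.1% and 21.2% of coding genes). Bivalent members then numbered 2 (2.37% of coding genes) and members with active marks and no H3K27me3 9 (16.2%). Members with all 4 antibodies went from 1 to 0, and no share of coding genes was taken for that count. The ligand minus receptor difference for H3K4me3 was -52.4 points. With the top 7793 regions of each list these were 17 for H3K4me3 (43.4% of coding genes), 3 for bivalent members and -49.2 points for that difference. With regions listed for 1 gene only, H3K27me3 was at 16 members (29.1% of coding genes), bivalent members numbered 9, and the ligand minus receptor differences were -27.2 points for H3K4me3 and 16.9 for H3K27me3. The 4 remaining results in the first setting, 8 in the second and 7 in the third stayed within 1.5 times, and no difference changed sign. Taking genes from the symbol alone left all 11 within 1.5 times, and counting only the 42 listed members left 10, with the H3K4me3 difference at -5.46 points. Requiring regions to share 0.5 of the narrower left both counts tried, bivalent members and members with all 4 antibodies, as they were. Of the counts for the pathway lists, under settings added after the data were seen, 15 of 28, 8 of 28 and 3 of 28 moved by over 1.5 times in the same order of settings. No paired analysis was possible because each antibody has 1 library.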
